A study of Mus musculus with 15 samples.

Results

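Exc_9 is 1 of the 26 fine excitatory clusters that the authors assigned to single cells of the mouse prefrontal cortex (PFC), and its members were taken here as every cell that carries this cluster name. There were 933 Exc_9 cells among the 35360 retained cells of the series and among the 20377 cells of all Exc clusters. Of these, 425 came from 12 libraries of adult mice (P60) and 508 came from 3 libraries of mice at postnatal day 21 (P21).

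All libraries were made with 10x Genomics droplet sequencing from male C57BL/6N mice, and each library pools the tissue of 2 mice. The P60 mice (8 to 10 weeks old in the labels) self-administered either saline or cocaine intravenously, and tissue was taken during maintenance, after 48 h of withdrawal or after 15 days of withdrawal, with 2 libraries for each of the 6 groups. The P21 mice (3 weeks old) had no self-administration. The methods name 4 mice at P21, while 3 libraries are listed, so it cannot be said that each P21 library stands for other mice, and the p-values below measure the spread between libraries. The labels name the nucleus accumbens as tissue whereas titles and paper name the PFC.

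Excitatory neurons of the upper cortical layers send their axons mainly to other cortical areas and are known as intratelencephalic neurons. They express the homeobox factor Cux2 and the calcium-binding protein calbindin (Calb1), while neurons of the deep layers that project below the cortex express factors such as Fezf2, Bcl11b (Ctip2), Foxp2 and Tle4. In the weeks between P21 and adulthood cortical neurons refine their synapses and lower the expression of genes of axon growth.

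Exc_9 was small at P60, where it ranked 19 of 26 Exc clusters by number of cells. Its share of the cells of all Exc clusters was 1.78% to 4.79% in the 12 P60 libraries, with a mean of 3.24% ± 1.14 (SD, n = 12). At P21 the share was 11.7%, 7.17% and 5.62% in libraries 1, 2 and 3, each above every P60 library. No test was made of this difference, because the authors named P21 cells by another route, from the correlation of each cell with the P60 clusters.

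**Figure D1:**
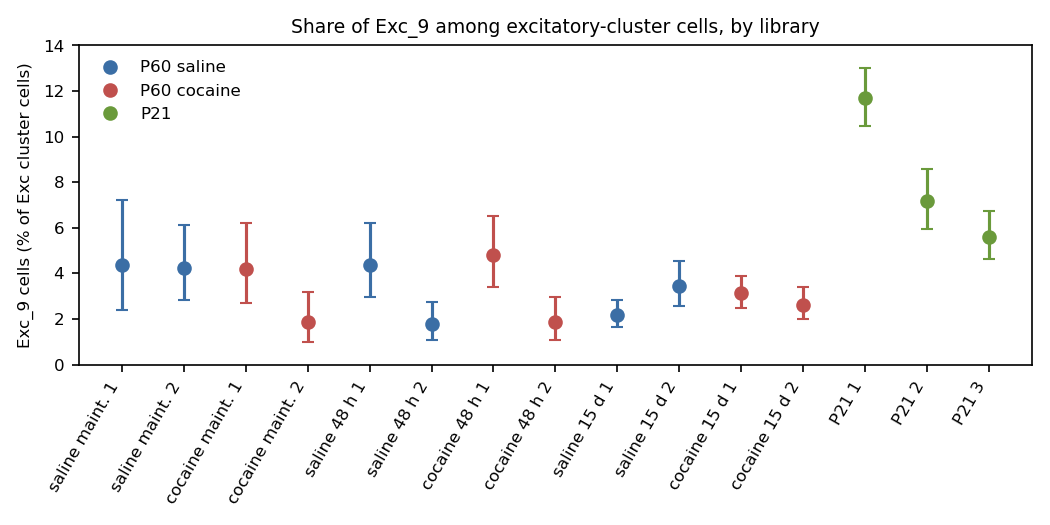
Share of Exc_9 cells among the cells of all Exc clusters (y axis, percent) in each of the 15 libraries (x axis, maint. for maintenance). Points are libraries and bars are exact 95% binomial intervals, which cover counting error only; the 3 P21 libraries sit at 5.62% to 11.7% and the 12 P60 libraries at 1.78% to 4.79%.

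No difference in the share of Exc_9 between cocaine and saline was larger than the spread between libraries. The mean share was 3.40% in saline and 3.08% in cocaine libraries, a difference of -0.32 percentage points (exact permutation test within time points, two-sided, p = 0.759 over 216 regroupings). Leaving out single libraries gave differences between -0.81 and 0.17 points, so the sign of the difference depended on single libraries.

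The cells were deep. A median of 14085 UMIs and 4057 genes was counted per Exc_9 cell at P60, and 11765 UMIs and 3715 genes at P21. Summed over Exc_9 cells, a P60 library held between 142645 UMIs (cocaine maintenance replicate 2, 13 cells) and 936409 UMIs (cocaine 15 days replicate 1, 82 cells), and a P21 library held 888747 to 3483488 UMIs. A floor of 3 UMIs corresponds to 14.7 CPM, the UMIs of a gene scaled to a common library total, in saline maintenance replicate 1 (14 cells) and to 0.86 CPM in P21 library 1, so low genes are poorly resolved in single P60 libraries. Of the Exc_9 cells, 1 barcode occurred in a pair of libraries (cocaine 48 h replicate 2 and P21 library 2, which shared 6 barcodes over all retained cells), and none occurred in any other pair.

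The label was checked against the deposited broad classes and against markers. All 425 P60 cells of Exc_9 have the class excitatory. At P21, 468 of 508 do, while 40 carry another class: 17 endothelial, 9 oligodendrocyte precursor, 5 microglial, and 3 each of astrocytes, newly formed oligodendrocytes and oligodendrocytes. These 40 cells fall into P21 libraries 1, 2 and 3 as 25, 9 and 6 cells, and the results on age are therefore also given for the cells of excitatory class only, an alternative chosen after the data were seen.

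Most listed upper-layer markers were above the mean of the other Exc clusters. Because the clusters were made from these genes, what follows is a description without tests. Cux2 (mm9, chr5:122308396-122500111, minus strand) averaged 126.6 ± 46.1 CPM in Exc_9 over 12 P60 libraries (63.1 to 239 CPM) against a mean of 55.7 CPM over the other 25 Exc clusters, and its rank among the 26 clusters was 4, with the highest value, 238 CPM, in Exc_6. Calb1 (mm9, chr4:15808411-15835211, plus strand) averaged 266 ± 74.5 CPM against 83.8 CPM elsewhere. Both were above the level in the pooled cells of the other clusters in every one of the 12 libraries.

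The same held for most superficial markers. The gene 6330527O06Rik, an older name of Lamp5, averaged 357 CPM in Exc_9 and 155 CPM in the other Exc clusters. Rasgrf2, an exchange factor for Ras and Rac, averaged 151 ± 11.5 CPM against 60.0 CPM, and it was the steadiest of these markers across libraries. Stard8 (40.6 against 12.9 CPM), Matn2 (48.4 against 24.6 CPM), Cux1 (25.6 against 15.0 CPM), Otof (13.2 against 5.87 CPM) and Pou3f2 (4.65 against 3.56 CPM) lay on the same side. Dkk3 did not, at 219 CPM against 249 CPM, so 9 of the 10 listed superficial markers were above the mean of the other clusters.

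Most listed deep-layer markers were low or absent. Syt6 and Nxph4 of layer 6 and Bcl6 and Fam84b of layer 5 had 0 UMIs among the 5536936 UMIs of P60 Exc_9 cells. This allows a level of up to 0.54 CPM. Means over the other Exc clusters were 11.6 CPM for Syt6, 1.26 for Bcl6, 1.18 for Fam84b and 0.147 for Nxph4. The last 3 genes were low in most Exc clusters, so their absence says little about Exc_9. Foxp2 was at 0.21 CPM (172 CPM in Exc_20), Fezf2 at 2.65 CPM (239 CPM in Exc_21), Tle4 at 5.33 CPM (205 CPM in Exc_18) and Bcl11b at 7.54 CPM (274 CPM in Exc_26). Tshz2, a marker of near-projecting neurons, was at 5.17 CPM against 2099 CPM in Exc_21. Pcp4, a calmodulin-binding protein of deep-layer neurons, stood at 155 CPM against a mean of 2051 CPM in the other Exc clusters. Pou3f1 of the layer 5 list went the other way, at 13.2 ± 11.3 CPM against 7.73 CPM. It was above the level in the pooled cells of the other clusters in 10 of 12 P60 libraries. Cacna1h of the same list was near that mean, at 6.71 against 7.63 CPM. Rorb, a nuclear receptor typical of layer 4, was intermediate with 37.3 ± 11.9 CPM against 69.3 CPM. In the paper, a fine cluster PFC-9 grouped with layer 5 intratelencephalic cells of the anterolateral motor cortex. Whether PFC-9 is the Exc_9 described here is not stated. The Exc-9 of the paper's text is 1 of its coarser clusters, which it places in layer 6.

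**Figure D2:**
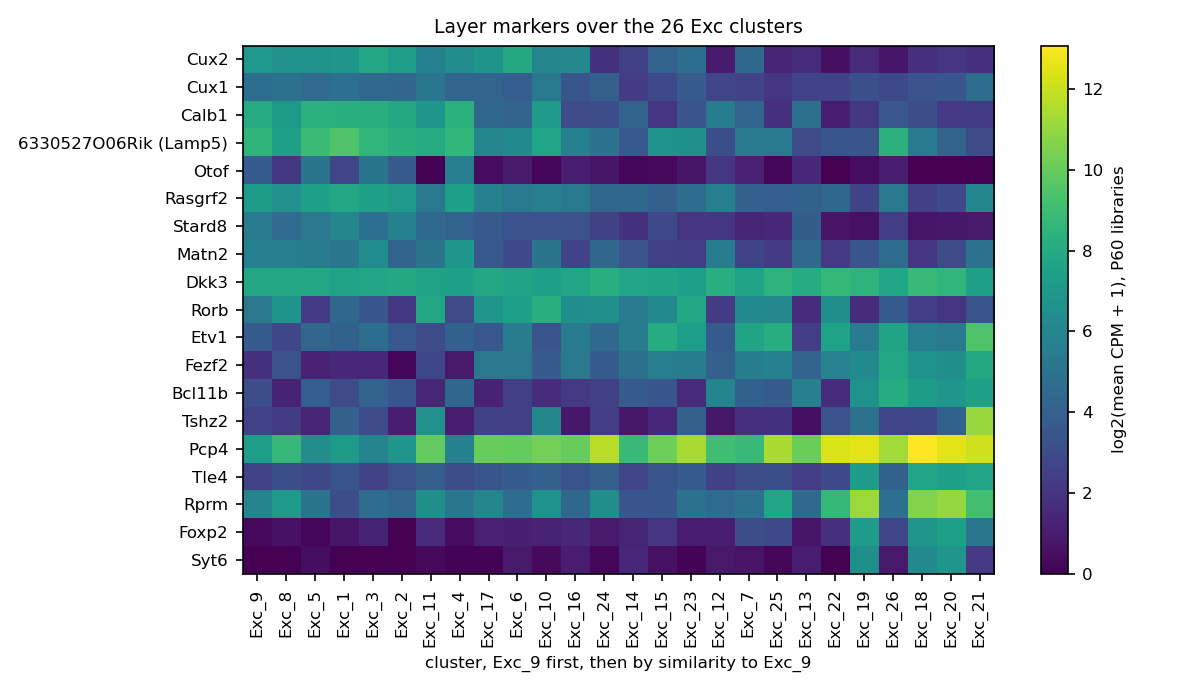
Levels of layer markers (rows) in the 26 Exc clusters (columns, Exc_9 first and then in falling order of similarity to it), as log2 of the mean CPM over P60 libraries plus 1. Cux2, Calb1 and Rasgrf2 are high in Exc_9 and in the clusters next to it, while Tshz2, Pcp4, Rprm, Foxp2 and Syt6 rise in clusters at the far end.

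General markers of excitatory neurons were all present, from Neurod2 at 49.2 CPM and Slc17a7, the vesicular glutamate transporter, at 333 CPM to Mef2c at 2296 CPM. After each cell was thinned to 2000 UMIs, Cux2 had a UMI in 19.8% of Exc_9 cells at P60 and in 25.8% at P21, against 0.81% and 0.82% of endothelial cells, which should lack it. Without thinning the shares in Exc_9 were 69.9% and 69.1% (median depths 14085 and 11765 UMIs), and in endothelial cells 1.63% and 1.72% (4516 and 3937 UMIs). Calb1 had a UMI in 37.9% of thinned Exc_9 cells at P60 and in 68.9% at P21, against 0.87% and 1.18% of endothelial cells.

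Markers of other cell types were low in the P60 cells. The 10 inhibitory markers summed to at most 35.5 CPM in a P60 library, with Dlx1 and Lhx6 at 0, the 6 markers of oligodendrocyte precursors to at most 7.96 CPM and the 8 microglial markers to at most 54.1 CPM. The 8 endothelial markers summed to 405 to 820 CPM, the 8 astrocyte markers to 196 to 485 CPM (Aqp4 at 0) and the 8 oligodendrocyte markers to 46.6 to 168 CPM. Single genes that all Exc clusters express carried the endothelial and astrocyte sums. Bsg averaged 579 CPM in Exc_9 against 641 CPM in the other Exc clusters (558 CPM in the lowest), while the next endothelial marker, Ly6c1, was at 7.80 CPM. Slc1a2 averaged 280 CPM against 359 CPM.

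Among genes with at least 20 CPM, the 12 with the highest ratio to the mean of the other Exc clusters were 2.46 to 3.44 times higher in Exc_9. They were Gm12371, Ddit4l, Rasd1, Calb1, Gm12300, Stard8, Mylk3, Enpp2, Aldh3b1, Frzb, Rasgrf2 and Phactr2. Gm12371 led with 58.6 ± 23.2 CPM against 16.3 CPM. Enpp2, which encodes autotaxin, the enzyme that makes lysophosphatidic acid, was the most abundant of them at 275 ± 28.7 CPM against 99.5 CPM. Ddit4l, an inhibitor of mTOR signalling, was at 156 ± 53.2 CPM against 45.7 CPM. Rasd1, a small G protein induced by glucocorticoids, was at 23.2 ± 9.38 CPM against 6.35 CPM.

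Few of these genes were highest in Exc_9 itself. Gm12371, Rasd1 and Gm12300 were, 3 of the 12, and the next cluster came close in each case (52.9 CPM of Gm12371 in Exc_1, 18.5 CPM of Rasd1 in Exc_8, 26.1 CPM of Gm12300 in Exc_5). Of 5918 genes at 20 CPM or more, 112 had their highest mean in Exc_9, and 32 were more than 2-fold above the mean of the other clusters. At P21 all 12 genes were above the mean of the other clusters, and 5 of them were among the 12 highest ratios at that age. P21 cells were named by their correlation with the P60 clusters, so this order is not independent of the naming. At the low end stood Tshz2, Pcp4, Nnat, Etv1, Myl4 and Tmem91, with Etv1, a factor of layer 5, at 13.2 CPM against 97.0 CPM.

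The clusters most like Exc_9 were Exc_8, Exc_5 and Exc_1, with Spearman correlations of mean log2 CPM over 9783 genes of 0.982, 0.978 and 0.973. Exc_3 was level with Exc_1 at 0.973 and took its place with Pearson's r. The P21 profile of Exc_9 was closer to that of Exc_9 at P60 (0.957) than to that of any other P60 cluster, a correlation of the kind by which P21 cells were named.

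Each neighbour was set off by other genes. Against Exc_8, Exc_9 had more Myh7 (53.2 against 5.19 CPM), Cplx2, Wfs1 and Rasl10a, and less Rorb (37.3 against 108 CPM), Satb1, Pcp4 and Npas4. Against Exc_5 it had more Bok, Dkkl1 (115 against 27.2 CPM), Krt12 and Rgs4 (805 against 233 CPM), and less Lypd1 (19.2 against 137 CPM), Cdh13, Lpl and Nnat. Against Exc_1 it had more Crym (313 against 40.5 CPM), Grp (219 against 29.2 CPM), Rprm and Pcbd1, and less Penk (3.57 against 286 CPM), Pcp4l1, Gpx3 and Incenp. Penk encodes the precursor of enkephalin, and Crym encodes a protein that binds thyroid hormone.

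The comparison of P21 with P60 saline libraries asked how Exc_9 differs between P21 mice and adult saline mice. By the methods, the saline mice had food restriction, lever training, catheter surgery and saline self-administration. The P21 mice had no self-administration, so age cannot be told apart here from these procedures or from the set of libraries. UMIs were summed per library and tested with edgeR's quasi-likelihood test, and a call needed both a p below 0.05 after Benjamini-Hochberg adjustment and more than a 1.5-fold change. Of 7211 genes tested, 821 were called (11.4%), of which 305 were higher (4.23%) and 516 lower at P60 (7.16%). The median change of all genes was 0.0035 on the log2 scale. The values of the 3 P21 and 6 saline libraries did not overlap for 1078 of the tested genes (14.9%), and for 601 of the 821 called. With cells of excitatory class only, 787 genes were called, 747 of them shared, and none of the 808 called genes tested there changed direction. Of the 821 genes, 422 were called in all 9 fits that left out a library. In the other Exc clusters summed, which share the libraries and had 2599 of 13175 genes called (19.7%), 809 of the 821 had the same direction. In bulk sums of this kind, fewer cells expressing a gene and less RNA per cell cannot be told apart.

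Rises and falls are named here among called genes whose groups do not overlap and whose mean was at least 20 CPM in the higher group. The largest such rises were those of Ass1 and Ptgs1. Ass1 (mm9, chr2:31325727-31376192, plus strand), the argininosuccinate synthase of arginine synthesis, was at 1.44, 0.96 and 1.13 CPM in the P21 libraries and at 28.2 to 78.0 CPM (median 43.0) in the P60 saline libraries. The groups were far apart, and the log2 change was 5.19 ± 0.42 (SE, adjusted p = 2.6e-09). Ptgs1, the cyclooxygenase COX-1, went from 2.30, 0.96 and 2.25 CPM to 14.7 to 28.4 CPM (median 21.5), a log2 change of 3.38 ± 0.43. A near-identical copy of the Ass1 transcript end lies elsewhere in the genome (98.6% identity), so reads of Ass1 could be shared with it.

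Dkkl1, a secreted protein related to Dickkopf, was at 26.7, 7.71 and 6.75 CPM at P21 and at 87.3 to 159 CPM (median 130) at P60, a log2 change of 2.87 ± 0.33. Myh14, a non-muscle myosin heavy chain, rose from 15.2, 17.4 and 11.3 CPM to 80.2 to 138 CPM (median 94.3), a log2 change of 2.74 ± 0.21. Every P60 library was above every P21 library for both genes. Nrsn2 (log2 change 3.05), Fhad1 (3.03), Tnnt2 (2.92) and Rnf207 (2.54) completed the 8 largest rises under these conditions.

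The largest falls under the same conditions were those of Cd24a and Marcksl1. Cd24a (mm9, chr10:43298975-43304068, plus strand), a surface glycoprotein of young neurons, was at 41.9, 55.0 and 70.9 CPM at P21 and at 0 to 2.59 CPM (median 0) at P60, where 2 UMIs were counted in all 6 libraries. Against a floor of 3 UMIs over the P60 group it was at least 42.7-fold lower, and the fitted log2 change of -5.90 depends on the prior count. Marcksl1 (mm9, chr4:129190825-129193229, plus strand), an actin-binding relative of MARCKS, was at 349, 229 and 264 CPM at P21 and at 0 to 27.7 CPM (median 12.3) at P60, and its log2 change was -4.28 ± 0.26 (adjusted p = 2.6e-09 by edgeR). Both genes have 1 near-identical copy of their transcript end elsewhere in the genome.

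Aldh1a3, an enzyme that makes retinoic acid, was at 21.8, 31.8 and 29.3 CPM at P21 and at 0 to 7.70 CPM (median 0) at P60, a log2 change of -3.69 ± 0.52. Nnat (log2 change -3.24) and Ier2 (-3.10) fell too. These falls were called with cells of excitatory class only as well.

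Id1 and Sparc were also among the largest falls, and they did not stand without the 40 cells of another class. Both fell under the count filter with excitatory-class cells, where their means at P21 were 4.95 and 9.32 CPM in place of 40.1 and 64.3 CPM.

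**Figure D3:**
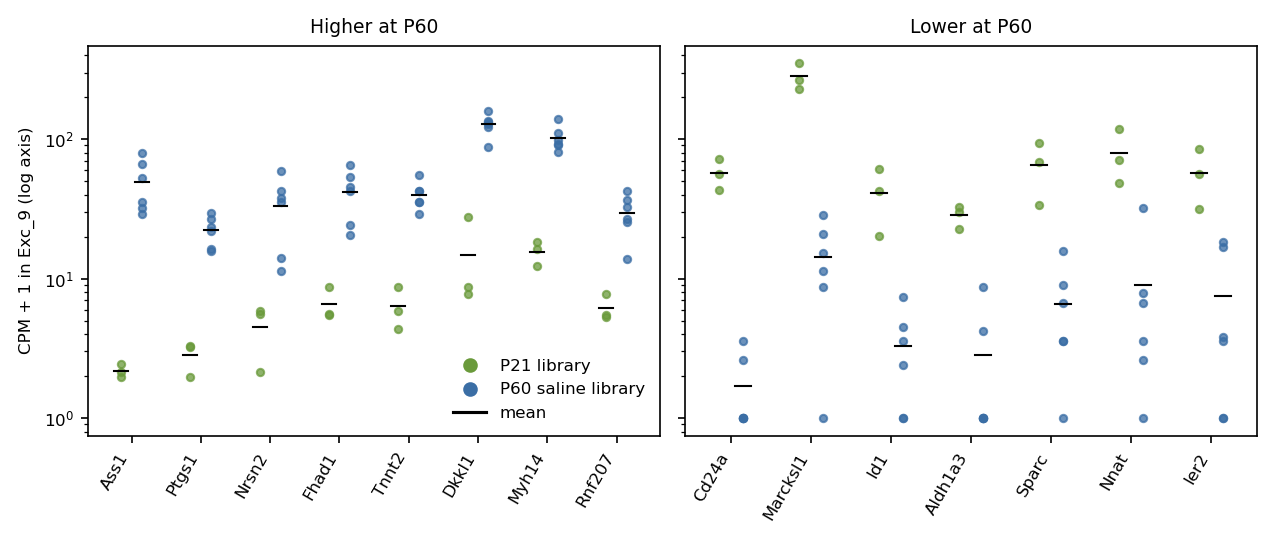
Levels in Exc_9 (y axis, CPM plus 1, log axis) of the 8 largest rises and of 7 of the largest falls from P21 to P60 (x axis). Points are libraries (3 P21, 6 P60 saline) and black lines are means; the genes were named among those with no overlap of the groups and at least 20 CPM in the higher group.

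Of the superficial markers Calb1 fell. It was at 688, 590 and 538 CPM at P21 and at 163 to 305 CPM (median 261) at P60, a log2 change of -1.32 ± 0.15 (adjusted p = 6.32e-06), with no overlap between ages. Dkk3 rose by 0.77 on the log2 scale, and the other 6 of 8 superficial markers tested were not called. Cux2 was at 171, 148 and 179 CPM at P21 and at 88.0 to 239 CPM (median 101) at P60, an overlapping range with a log2 change of -0.44 ± 0.23 (adjusted p = 0.222). Rorb, of the layer 4 and 5 list, changed more than Calb1 and rose from 8.61, 14.5 and 6.75 CPM to 18.1 to 46.8 CPM (median 33.7), a log2 change of 1.85 ± 0.31. Rorb also separates Exc_9 from Exc_8 (37.3 and 108 CPM at P60), and P21 cells were named by another route. A change in level cannot be told here from a change in which cells carry the name. None of the 10 general excitatory markers was called.

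Immediate early genes, which are switched on by neuronal activity and by stress, mostly fell. Of 14 tested, 10 fell and none rose, where 7.16% of all genes tested were lower and 4.23% higher at P60. The median log2 change was -1.31 against 0.0035 for all genes tested. Fos was at 300.3, 378 and 344 CPM at P21 and at 29.3 to 102 CPM (median 77.1) at P60, a log2 change of -2.16 ± 0.18. Junb was at 392, 320.1 and 270.0 CPM at P21 and at 36.9 to 89.9 CPM (median 52.8) at P60. Npas4 (log2 change -1.70), Btg2 (-1.79), Nr4a1 (-1.34) and Egr1 (-0.67) fell too, while Arc stayed within its spread, with a log2 change of -0.30 ± 0.41. With excitatory-class cells 8 of the 10 were called, and Jun and Dusp1 were not. Dissociation of tissue is known to induce such genes, and its part in the result was not tested.

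For the lists that follow, the shares over all genes tested were 7.16% lower and 4.23% higher at P60. Genes of axon growth and the growth cone mostly fell where they moved. Of 15 tested, 6 fell (Marcksl1, Marcks, D0H4S114, Dpysl2, Stmn2 and Crmp1), 1 rose (Tmsb10) and 8 were not called, with a median of -0.39. Stmn2, a microtubule regulator, was at 1696, 2246 and 2268 CPM at P21 and at 950.1 to 1365 CPM (median 1116) at P60. Gap43, the growth-associated protein, missed the fold limit with a log2 change of -0.52 ± 0.13 (adjusted p = 0.0071). D0H4S114 is an older name of Nrep.

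Of 19 genes of adhesion and synapse formation tested, 5 fell (Cdh13, Lrrtm1, Ncam1, Nlgn3 and Cadm2) and 1 rose (Cntn4), with a median of -0.24. Of 20 chromatin genes, 7 fell (Yeats4, Dnmt3a, Hmgn1, Chd3, Tet3, Ube2d3 and Hdac2) and 3 rose (Hspa1a, Ezh1 and Prmt1), with a median of -0.18. Hspa1a, an inducible chaperone, was also the only one of 12 heat shock genes called (median 0.04), with values of 9.47, 20.2 and 6.75 CPM at P21 and 0 to 41.4 CPM (median 31.2) at P60, which overlap. The chromatin list was drawn up with the study's own choices from these samples in view, among them Hspa1a, Ezh1, Yeats4, Prmt1, Ube2d3 and Dnmt3a, so its directions are not independent evidence. Yeats4 and Hmgn1 are also among the 63 genes described below that differed between libraries at 15 days of withdrawal, and these libraries enter both comparisons. In P21 library 1 Yeats4 was at 126 CPM, against 69.4 and 69.8 CPM in P21 libraries 2 and 3.

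Glutamate receptor genes moved in both directions. Of 17 tested, 3 rose (Grm8, Grm3 and Gria4) and 1 fell (Grin3a), with a median of 0.03, where 11.4% of all genes were called. Grm8, a presynaptic metabotropic receptor, went from 6.03, 3.86 and 2.25 CPM to 9.77 to 25.7 CPM (median 18.2), a log2 change of 1.89 ± 0.40. None of 11 GABA-A receptor genes (median -0.10) and none of 9 neurofilament and tau genes (median 0.20) was called, while Kcnab1 was among the ion channel genes that were higher (median 0.14 over 22 tested). Among 16 calcium-binding genes (median -0.10) Ncald and Hpca rose and Calb1 fell.

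The opioid precursors Penk and Pdyn fell among 7 neuropeptide genes tested (median -0.35). Pdyn, which encodes prodynorphin, was at 35.9, 22.2 and 32.6 CPM at P21 and at 2.59 to 10.3 CPM (median 4.51) at P60. Rgs14 rose among 7 dopamine signalling genes (median 0.10). Of 72 nuclear genes of oxidative phosphorylation, 3 fell (Cox5a, Uqcrfs1 and Cyc1) and none rose, a smaller share than over all genes, with a median of 0.11. Cyc1 was at 441, 189 and 162 CPM in P21 libraries 1, 2 and 3 and Uqcrfs1 at 233, 66.5 and 69.8 CPM, so both were highest in library 1. They were called in 5 and 3 of the 9 fits that left out a library, and both are also among the 63 genes of 15 days.

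Markers of other cell types moved with age in the same cells. The 8 endothelial markers summed to 720.1 to 1264 CPM in the P21 libraries and to 405 to 743 CPM in the P60 saline libraries, and all 4 of them that were tested (Flt1, Itm2a, Ly6c1 and Bsg) were lower at P60. Bsg again made up most of these sums, with 1063, 913 and 630 CPM at P21 and 391 to 667 CPM at P60. The 8 oligodendrocyte markers summed to 204 to 650 CPM at P21 and to 46.6 to 161 CPM at P60, and Mbp was lower. With cells of excitatory class only the P21 sums were 552 to 909 CPM and 75.8 to 201 CPM. Only 1 of the 8 endothelial and 2 of the 8 oligodendrocyte markers then passed the count filter, and none of these 3 was called. None of the 1 inhibitory and 3 astrocyte markers tested was called, and too few UMIs of precursor and microglial markers were counted for a test.

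The change of Exc_9 with age was then set against that of the other 25 Exc clusters of the same libraries, as an interaction of age and cluster with library as block. Of 12433 genes tested 194 were called (1.56%). The change was higher in Exc_9 for 82 (0.66%) and lower for 112 (0.901%), and the median difference over all genes was -0.06. Against the sum of the 3 most like clusters 110 genes were called, 47 of them shared, and DESeq2 called 67, 64 of them shared. The count filter used the sums of both sides, and 155 of the 194 genes also passed it in Exc_9 alone. A fit on the genes that passed in Exc_9, which was not planned, called 133, 119 of them shared. Of the 194 genes, 64 were called in all 9 fits that left out a library. With excitatory-class cells only Exc_9 was restricted, while the other Exc clusters kept all their cells. Cells were assigned to clusters by another route at P21 than at P60. This test cannot tell such a difference from a difference in the change itself. UMIs of the other Exc clusters were summed over cells, so larger clusters weighed more. A shift with age in the shares of those clusters cannot be told from a difference in the change either.

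The called genes with the largest differences rest on few UMIs. Chrnb3 (0 UMIs in Exc_9 at P21 and 4 at P60), Nek8 (0 and 5), Sec24d (1 and 6) and Col12a1 (15 and 19) were the 4 highest of those called, with log2 differences of 7.94, 7.48, 4.14 and 3.51. Hes1 (21 and 0), Fam38a (18 and 0), Zar1l (22 and 0) and Hbegf (25 and 1) were the 4 lowest of those called, with -7.59, -7.54, -7.52 and -3.58. Hes1 and Hbegf were not called with excitatory-class cells (adjusted p = 0.161 and 0.707 by edgeR), and a fitted value against 0 UMIs is no measure of size.

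More abundant genes, chosen after their values were seen as those of at least 20 CPM in Exc_9 at an age, were better resolved. Dkkl1 rose from 13.7 to 127 CPM in Exc_9 and from 78.8 to 173 CPM in the other clusters, a log2 difference of 1.64 ± 0.16. It remained called against the 3 most like clusters (2.33), as did Fhad1 (1.81 and 1.97). Ntf3, the neurotrophin-3 gene, fell from 25.6 to 8.64 CPM in Exc_9 and was at 5.99 and 6.69 CPM in the others (-1.91 ± 0.38), and Capn3, a calpain protease, fell from 59.4 to 7.54 CPM against 21.9 to 11.4 CPM (-1.88 ± 0.31). Both were also called against the 3 most like clusters.

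For other genes the call was lost against the neighbours of Exc_9. Ass1 (log2 difference 2.55), Ptgs1 (2.61), Nrsn2 (2.25), Lynx1 (2.27), Cd24a (-3.03), Aldh1a3 (-2.62), Id1 (-2.08) and Tmem150c (-1.76) were called against all other Exc clusters but not against the 3 most like ones. There Ptgs1 was at -0.26 and Cd24a at 0.39, so that their directions turned. Ass1 (0.31), Nrsn2 (0.84) and Lynx1 (0.97) kept their direction with smaller values, and Aldh1a3 (-1.90), Id1 (-1.51) and Tmem150c (-1.67) stayed closer to their values against all clusters. For Id1 the difference was also lost with excitatory-class cells (0.62).

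Tmsb10, which binds actin monomers, had opposite directions. It rose in Exc_9 from 1080, 704 and 662 CPM to 1164 to 1483 CPM (median 1257, log2 change 0.67). In the sum of the other clusters it fell from a mean of 3498 to 2209 CPM (-0.60). The difference was 1.26 ± 0.07 (adjusted p = 6.39e-65 by edgeR). The edgeR fit shares information on the spread among genes, so this p does not rest on the spread of Tmsb10 between libraries alone. Against the 3 most like clusters the difference was 0.35, under the fold limit. Its transcript end has 2 near-identical copies elsewhere in the genome.

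Over all genes of this test 0.901% had a lower and 0.66% a higher change in Exc_9. Of the listed genes, 3 of 10 superficial markers had a lower change in Exc_9 than elsewhere (Calb1 -0.66, Stard8 -0.72 and 6330527O06Rik -0.74). Rorb had a higher one (0.86, adjusted p = 0.0335, and 0.0547 with excitatory-class cells). Of 23 immediate early genes 4 were lower (Klf4, Fos, Npas4 and Btg2) and Nptx2 was higher, with a median of -0.33. Marcksl1 was lower (-1.64) against all clusters and turned to 0.33 against the 3 most like ones. Cdh13 (-1.42) and Lrrtm1 (-0.83) of 20 adhesion genes and Necab2 of 18 calcium-binding genes were lower, and Grm8 (1.51) and Ppp1r1b (1.07) were higher, the latter turning to -0.05 against the 3 most like clusters. Itm2a and Ly6c1 of 8 endothelial markers were lower, and both turned positive with excitatory-class cells. Cells of another class were removed there from Exc_9 only and not from the other Exc clusters. The effect of this removal cannot be told from a difference in the change. With excitatory-class cells the oligodendrocyte markers Cldn11 and Mobp and the microglial markers Ctss, C1qb and C1qc had a higher change in Exc_9, which none had with all cells, and their part in the other calls of that alternative was not tested. None of the chromatin, oxidative phosphorylation, GABA-A receptor, neurofilament, neuropeptide, heat shock or general excitatory genes was called.

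**Figure D4:**
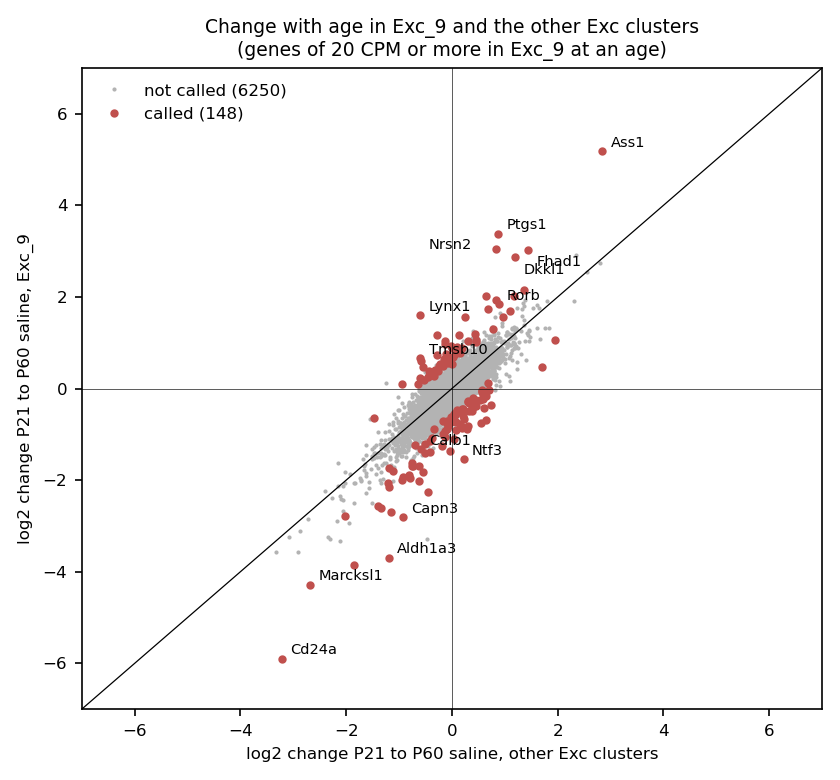
Log2 change from P21 to P60 saline in the other Exc clusters (x axis) and in Exc_9 (y axis) for 6398 genes of at least 20 CPM in Exc_9 at either age. Red points are the 148 of these called in the interaction of age and cluster, and the diagonal marks equal change. Ass1 and Ptgs1 lie above it and Cd24a and Marcksl1 below it. Tmsb10 rose in Exc_9 and fell in the sum of the other Exc clusters.

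Cocaine was compared with saline at each time to ask whether self-administration or withdrawal changed Exc_9. With 2 libraries per group all 12 P60 libraries shared an estimate of the spread. At maintenance edgeR called 0 of 6320 genes (0.0%), with 311 at an unadjusted p below 0.05, and DESeq2 called 0. After 48 h of withdrawal edgeR again called 0 (0.0%), with 268 at an unadjusted p below 0.05, and DESeq2 0. Over all times edgeR called 0 (0.0%), with 355, and DESeq2 0. In simulated counts in which 200 genes carried a log2 change of 1, 24.5% were recovered at maintenance and 33.5% at 48 h, so a change of that size in single genes would often be missed. Every gene list had 0 members called in these 3 comparisons.

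After 15 days of withdrawal 63 of 6320 genes were called (0.997%), all higher in cocaine, and DESeq2 called 12. Fbxl15, an F-box protein of a ubiquitin ligase (mm9, chr19:46402674-46404936, plus strand), was at 58.7 and 49.2 CPM in the cocaine libraries and at 8.51 and 17.5 CPM in the saline libraries, a log2 change of 2.08 ± 0.41 (adjusted p = 0.00216). Tmem93 was at 186 and 146 CPM against 24.1 and 82.7 CPM (1.69), Mrps34, a protein of the mitochondrial ribosome, at 112 and 82.8 CPM against 24.1 and 38.2 CPM (1.68), and 2310036O22Rik at 155 and 116 CPM against 22.7 and 70.0 CPM (1.61). In each of the 4 genes saline replicate 2 was above saline replicate 1. Mrps34 overlaps Nme3 on the same strand.

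The listed genes among the 63 included Nrgn of the general excitatory markers (neurogranin, a calmodulin-binding protein of the synapse). The others were Yeats4 and Hmgn1 of 19 chromatin genes, and Cyc1 and Uqcrfs1 of 72 oxidative phosphorylation genes, whose median change was -0.07. Over all genes tested 0.997% were called. Nrgn was at 2756 and 2385 CPM in the cocaine libraries and at 956 and 1667 CPM in the saline libraries. Cyc1 was at 265 and 295 CPM against 78.0 and 127 CPM. No layer, receptor, channel, neuropeptide, heat shock, immediate early or axon growth gene was called. Summed levels of the 16 neuropeptide and opioid genes differed all the same, at 5757 and 4883 CPM in the cocaine and 854 and 2648 CPM in the saline libraries. The earlier P60 libraries held 644 to 1528 CPM and P21 library 1 held 7353 CPM. These sums were not tested.

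Both cocaine libraries were above both saline libraries of 15 days for all 63 genes, with a median log2 change of 1.11. The genes were called on these same libraries, which largely fixes this order. The counts below are given without the same counts over all tested genes. The saline libraries differed among themselves too. Saline replicate 2 was above saline replicate 1 for 63 of 63 genes, and in 34 of 63 saline replicate 2 was above all 8 libraries of the earlier times, 4 of which are cocaine libraries. P21 library 1, from mice without cocaine, was above both cocaine libraries for 53 of 63. It was above the mean of the 8 earlier P60 libraries for all 63, and P21 library 2 was so for 57. The median over the 63 genes, as log2 distance to the P60 mean, was 1.07 and 0.95 in the cocaine libraries of 15 days, -0.44 and 0.29 in the saline libraries of 15 days, -0.45 to -0.04 in the 8 earlier libraries, and 1.43, 0.76 and 0.61 at P21.

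Both cocaine libraries of 15 days were also above both saline libraries of 15 days in every other cell class, by these medians. In the other Exc clusters of these libraries all 63 genes were higher in cocaine at 15 days, with a median log2 change of 0.91 against 1.11 in Exc_9, and 23 of the 63 were called, where 99 of all 13159 genes tested there were (0.752%). The genes were chosen by their change in Exc_9, which favours the larger value there. In endothelial cells the same medians were 1.10 and 1.16 in the cocaine libraries, -0.09 and 0.46 in the saline libraries of 15 days and 1.35 in P21 library 1. Saline replicate 1 was low in Exc_9 but not in all classes, with 0.34 in microglia, above all 8 earlier libraries there, 0.14 in oligodendrocyte precursors and 0.02 in astrocytes. The number of calls and the genes called depended strongly on which library of 15 days was left out. Each such fit leaves 1 library in a group, so its calls are not given. Of the 63 genes, 1 was called in all 12 fits that left out a library. For the cocaine change at 15 days minus that at maintenance or at 48 h, edgeR called 0 of 6320 genes. There were 357 and 253 genes at an unadjusted p below 0.05. The smallest adjusted p by edgeR was 0.0503 against maintenance and 0.434 against 48 h. DESeq2 results for these differences are not given here, and their recovery was not simulated. The cause of the difference between libraries was not tested.

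**Figure D5:**
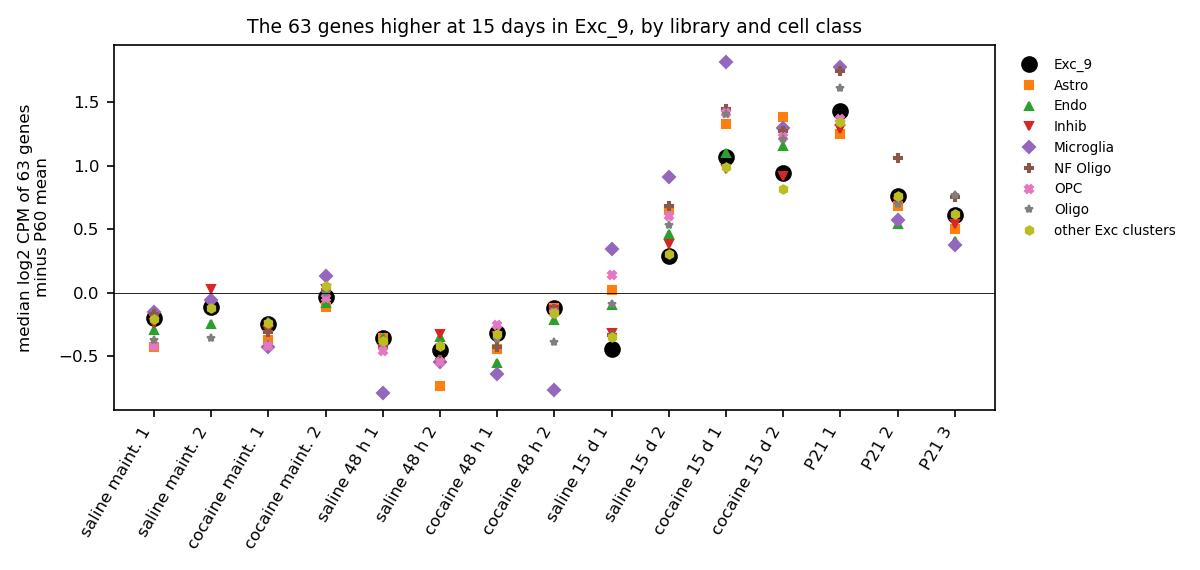
Median over the 63 genes called at 15 days in Exc_9 of the log2 level minus its P60 mean (y axis) in each library (x axis), for Exc_9 (black circles), the other Exc clusters and the other cell classes where enough cells were present. The cocaine 15 d libraries, the P21 libraries (1 highest) and saline 15 d replicate 2 stand above 0 in all of these cell classes for which they have a point, and saline 15 d replicate 1 is at -0.44 in Exc_9.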

How the data were processed

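The authors aligned reads to mm9 and counted UMIs with Cell Ranger, and clustered cells with Seurat 2.1.0. The deposited matrices hold raw UMI counts per gene and cell, not normalized, and a further deposited table names each retained cell's class and cluster, with the fraction of mitochondrial UMIs given by the authors. Of 43795 deposited barcodes 35360 were retained by the authors, 24822 of them from P60, the number the methods state, and 10538 from P21, fewer than the methods state. Their filters included limits on mitochondrial UMIs and on genes per cell and a manual check for doublets, and no further doublet caller was run.

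UMIs of Exc_9 cells were summed per library. Of 26145 listed genes, 13 genes of the mitochondrial genome and 86 genes of ribosomal proteins were removed, and CPM are relative to the remaining 26046. Tests used edgeR 4.0.16 in R 4.3.3 with TMM scaling, its filter on low counts and robust quasi-likelihood tests, on libraries with at least 10 Exc_9 cells. Saline P60 libraries served as controls for both age and cocaine, so these comparisons share samples. The scripts were tested on simulated data: of 200 genes given a log2 change of 1, 64.5% were recovered for age among 7211 genes, with 5 false calls among 134, 62.5% for 15 days among 6320 genes, and 53% for the interaction among 12433. Alternatives included DESeq2 1.42.0, other scaling and filters, and leaving out each library. Figures and tables used python 3.11.15, numpy 2.4.6, pandas 2.3.3, scipy 1.17.1 and matplotlib 3.10.9.

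Genes were named by rule: layer markers, the 12 highest and 6 lowest ratios to the other Exc clusters (on CPM plus 1), the 4 highest and 4 lowest against each of the 3 most like clusters, the 8 largest rises and falls with age among called genes whose groups do not overlap, with at least 20 CPM in the higher group, the 4 largest called changes in each direction for cocaine and for the interaction, and the called members of the gene lists. Some genes that these rules name are not reported here. The cluster, the gene lists and the rules were chosen with earlier results of these data known. Of the listed symbols 6 were matched through older names. Positions are from GENCODE for mm9, and the last 300 bases of 148 named transcripts were searched for near-identical copies (at least 97% identity over 90 bases) with minimap2 2.31-r1302, which found them for Ass1, Cd24a, Ly6c1, Marcksl1, Myh7 and Tmsb10.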

Additional observations from a re-analysis of the deposited data

Results flagged for a closer look

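The change with age differed between Exc_9 and the other Exc clusters, by the interaction of age and cluster (edgeR, adjusted p below 0.05 and above 1.5-fold), for 194 genes, of which 20 are given here, the 4 highest and 4 lowest and the 6 highest and 6 lowest of at least 20 CPM in Exc_9 at an age. The log2 difference was 7.94 for Chrnb3, 7.48 for Nek8, 4.14 for Sec24d, 3.51 for Col12a1, 2.61 for Ptgs1, 2.55 for Ass1, 2.27 for Lynx1, 2.25 for Nrsn2, 1.81 for Fhad1 and 1.64 for Dkkl1. It was -7.59 for Hes1, -7.54 for Fam38a, -7.52 for Zar1l, -3.58 for Hbegf, -3.03 for Cd24a, -2.62 for Aldh1a3, -2.08 for Id1, -1.91 for Ntf3, -1.88 for Capn3 and -1.76 for Tmem150c. Of these, all genes beyond 3 in size except Col12a1 had 2 UMIs or fewer in Exc_9 at one of the ages.

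For 71 measures, each over the 6 saline or the 6 cocaine libraries of P60, 9 held a library far from the others, where chance flags about 1 in 20. In saline maintenance replicate 1, the library with 14 Exc_9 cells, Kcnab1 was lowest at 0.0 CPM, D0H4S114 lowest at 4.89 CPM, Ncald lowest at 684 CPM and Penk highest at 24.4 CPM. In saline 15 days replicate 2, Flt1 was highest at 14.3 CPM, Hmgn1 at 84.3 CPM and Ly6c1 at 30.2 CPM. Nnat was highest in saline 48 h replicate 1 at 30.8 CPM, and Marcks lowest in saline maintenance replicate 2 at 59.5 CPM.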

How the results depend on the processing

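For the change with age, 821 calls became 1247 without the count filter, 363 with only the saline libraries of 15 days and 215 with equal numbers of cells per library. Equal numbers of cells leave fewer genes to test. At maintenance 1 gene was called without the count filter, 1 with at least 20 cells per library, and 0 to 1 when single libraries were left out (1 without cocaine maintenance replicate 2). At 15 days 63 calls became 12 with DESeq2 and ranged from 5 to 139 without single libraries. Over all times 1 gene was called without the count filter, and 0 to 12 without single libraries (12 without saline 15 days replicate 2, 3 without saline 48 h replicate 1). For the interaction 194 calls became 67 with DESeq2, 110 against the 3 most like clusters and 466 without the fold limit. Of the 12 genes with the highest ratios 5 were kept at P21. The difference in share ranged from -0.81 to 0.17 points without single libraries, turning to 0.068 without cocaine maintenance replicate 2, 0.11 without saline 48 h replicate 1 and 0.17 without cocaine 48 h replicate 2.

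Directions turned for Mbp with age with equal cells (0.042), and in the interaction for Itm2a (0.38), Id1 (0.62) and Ly6c1 (1.13) with excitatory-class cells and for Cd24a (0.39), Ptgs1 (-0.26), Marcksl1 (0.33) and Ppp1r1b (-0.054) against the 3 most like clusters. The excitatory-class alternative restricted Exc_9 only and not the clusters it was set against. The cause of the turned directions was not tested. Summing P21 libraries 2 and 3, chosen after seeing the data, gave 707 calls with age, 666 of them shared. No paired analysis was possible because the labels do not tie libraries of different groups by a shared animal, litter or day.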
